A study of Mus musculus with 5 samples.

Results

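The mitochondrial ribosomal protein genes were examined in granulocytes and in cultured blood progenitor cells of the mouse. Members were all features whose symbol is Mrpl or Mrps followed by a number and at most 1 letter, either alone or as 1 symbol of a merged feature. The rule found 76 genes among the 38166 features of the progenitor tables, 47 with large subunit symbols (Mrpl) and 29 with small subunit symbols (Mrps). The same 76 genes were found among the 34315 features of the granulocyte tables. 2 of them stood in features merged with a neighbouring gene, Mrpl53 with Ccdc142 and Mrps6 with Slc5a3, so their values also hold reads of that neighbour.

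Mitochondria keep a ribosome of their own, which descends from that of bacteria and translates the messenger RNAs of mitochondrial DNA into subunits of the respiratory chain and of ATP synthase. Its ribosomal RNAs come from mitochondrial DNA, whereas all of its proteins are encoded in the nucleus, made in the cytosol and imported. About as many genes are therefore needed for each particle as for a cytosolic ribosome, and a large share of the proteins have no counterpart in bacteria. Blood stem and early progenitor cells rely strongly on glycolysis at rest and raise mitochondrial activity when they divide, while mature granulocytes hold few mitochondria.

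RNA was polyA-selected from C57BL/6 mice and sequenced in 5 libraries that form 4 groups. The granulocyte group was Gr1+ cells sorted from bone marrow of 12-month-old mice as primary cells. Its 2 libraries are technical replicates of 1 biological replicate, so n = 1. The other 3 groups were KSL cells, which are bone marrow cells positive for c-Kit and Sca-1 and negative for lineage markers, a population that holds blood stem cells and multipotent progenitors. All 3 came from mice treated with 5-fluorouracil (5-FU), a drug that kills dividing blood cells. All 3 were transduced with a retrovirus, kept in culture for 2 days in medium that held stem cell factor at 10 ng/ml and thrombopoietin at 100 ng/ml, and sorted as KSL cells carrying green fluorescent protein. They differed in the construct: Control-KD was the knockdown control, LncHSC-1-KD targeted LncHSC-1 and LncHSC-2-KD targeted LncHSC-2, both long non-coding RNAs. Each KSL group was 1 library of cells that had taken up the virus, and the sources used here give neither the number of mice behind it nor their age. The comparisons address which transcripts follow each long non-coding RNA. No feature could be matched by name to either long non-coding RNA, so the depth of the knockdowns was not checked here. With 1 library a group, no difference between conditions could be tested, and every ratio compares libraries.

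The depth estimated from the values was 21018469 reads for the control, 24145600 for LncHSC-1 and 19934925 for LncHSC-2. All 8 KSL marker genes were at 5 FPKM (fragments scaled to transcript length and library size) or more in the control library, and all 9 granulocyte markers were in granulocytes. In granulocytes 1 of the 8 KSL markers, Kit, reached 5 FPKM, and in the control KSL library 5 of the 9 granulocyte markers did. All 5 monocyte and macrophage markers also reached 5 FPKM in granulocytes, with a sum of 319 FPKM beside 148300 for the 9 granulocyte markers. So did 2 of 6 T and NK cell markers, 1 of 4 erythroid markers and 0 of 6 B cell markers. The part of such cells in the granulocyte levels was not tested. The summed FPKM of 6 B cell markers was 47.3 in the control, 79.7 in LncHSC-1 and 48.4 in LncHSC-2, none of them at 0, and that of 5 monocyte and macrophage markers was 41.0, 53.9 and 39.4. Both sums were highest in the LncHSC-1 library, and their part in the results below was not tested. KSL values rest on a median of 1077 reads per gene in the control, 1246 in LncHSC-1 and 1042 in LncHSC-2 over the 75 genes with a mean of at least 5 FPKM in the 3 KSL libraries.

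In KSL cells the genes were expressed almost without exception. 75 of 76 were at 5 FPKM or more in each KSL library, where 23.9%, 24.0% and 23.9% of all features reached that level in the control, LncHSC-1 and LncHSC-2 libraries. The median gene stood at 37.9 FPKM in the control, 37.2 in LncHSC-1 and 39.5 in LncHSC-2, against 19.7, 19.4 and 19.8 FPKM for the median of all features at 5 FPKM or more. The genes together took 0.823%, 0.834% and 0.824% of the summed FPKM. The middle 50% of the genes lay between 28.5 and 59.5 FPKM in the control. The ninth decile was 6.84 times the first, so transcript levels differed widely between genes of the same particle.

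**Figure D1:**
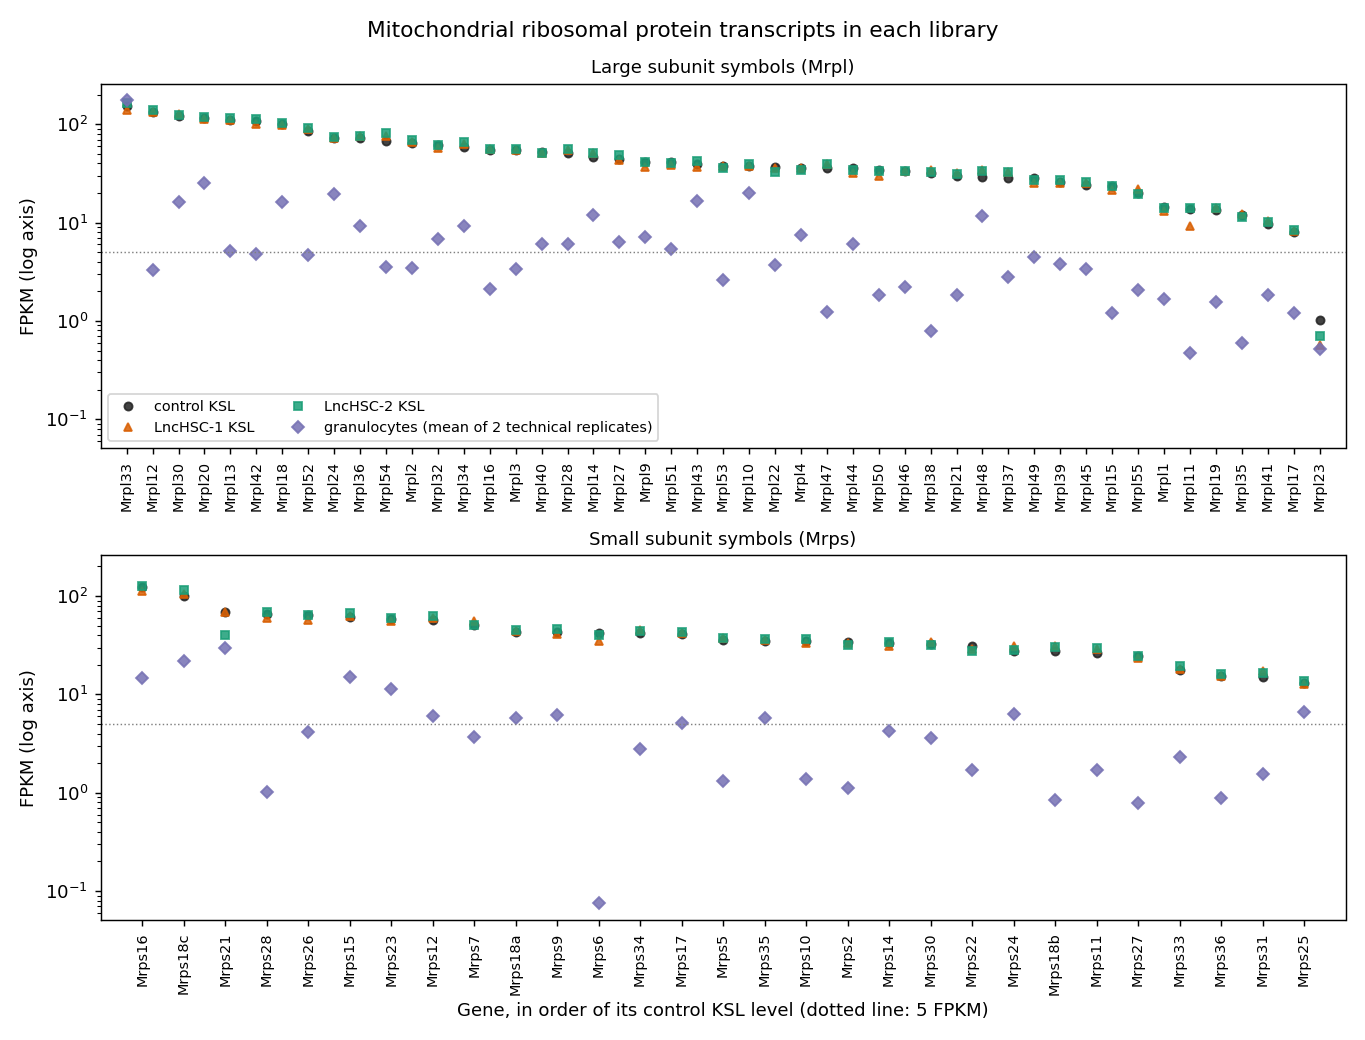
FPKM of each gene on a log axis in the control, LncHSC-1 and LncHSC-2 KSL libraries and in granulocytes (mean of 2 technical replicates), with large subunit symbols above and small subunit symbols below, ordered by control level. The 3 KSL marks of a gene nearly coincide except for Mrps21, Mrpl11 and Mrpl23, the last from 11, 7 and 7 reads. The granulocyte marks lie lower for every gene but Mrpl33, on the scales of the 2 separate experiments.

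Among large subunit genes, Mrpl33 was highest, at 154 FPKM in the control, 138 in LncHSC-1 and 164 in LncHSC-2. Mrpl12, whose product forms the stalk that recruits translation factors, stood at 133, 134 and 140 FPKM. Mrpl30, Mrpl20 and Mrpl13, counterparts of bacterial large subunit proteins, followed with 121, 115 and 110 FPKM in the control. These 5 genes were among the 6 highest in the control, together with the small subunit gene Mrps16 at 123 FPKM. At the other end stood Mrpl17 with 8.04 FPKM, Mrpl41 with 9.63, Mrpl35 with 11.8, Mrps25 with 13.1 and Mrpl19 with 13.5 in the control. Mrpl23 was the 1 gene below the floor, at 1.03, 0.563 and 0.699 FPKM from 11, 7 and 7 reads. Its pseudogene Mrpl23-ps1 was listed at 6.90, 7.27 and 8.03 FPKM, and reads that fit both copies could have been divided between them, so the level of Mrpl23 is uncertain. The same holds to a smaller extent for Mrpl48, whose pseudogene Mrpl48-ps was at 2.66, 2.71 and 2.92 FPKM, and for Mrps36, whose pseudogene Mrps36-ps1 was at 0.766, 1.24 and 1.54.

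The medians of the subunits and of the ancestry classes differed by less than the spread within each class. The control median was 37.9 FPKM for the 47 large subunit symbols and 35.9 for the 29 small ones. It was 46.5 FPKM for 29 large subunit genes with a bacterial counterpart and 33.2 for 19 without one, which include Mrps30, a small subunit symbol whose product sits in the large subunit. In the small subunit it was 42.5 FPKM for 16 genes with a bacterial counterpart and 30.8 for 9 without one. Mrps18a, Mrps18b and Mrps36, at 43.0, 27.6 and 15.2 FPKM in the control, were placed in neither class. The conserved class as drawn here thus had the higher median in both subunits. However, conserved large subunit genes ranged from 1.03 to 154 FPKM and the mitochondria-specific ones from 9.63 to 108. Levels were lower for longer gene models, with Spearman's rho of -0.63 in the control over the 76 genes, a description of these models since FPKM is itself divided by length.

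A trio of small subunit symbols, Mrps18a, Mrps18b and Mrps18c, are paralogs that descend from 1 bacterial protein; the product of Mrps18a sits in the large subunit. Mrps18c was the highest of them, at 100 FPKM in the control, 104 in LncHSC-1 and 116 in LncHSC-2. Mrps18a stood at 43.0, 44.2 and 45.6 FPKM and Mrps18b at 27.6, 31.0 and 30.1. Their order was the same in all 3 KSL libraries and in granulocytes, where the mean levels were 21.9, 5.73 and 0.851 FPKM. Mrps36, whose product is now regarded as a part of the alpha-ketoglutarate dehydrogenase complex rather than of the ribosome, was at 15.2, 15.5 and 16.1 FPKM in KSL cells.

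The genes lay on 17 chromosomes, with 10 on chromosome 11 and 8 on chromosome 17, and did not form 1 cluster. In 27 of 76 (35.5%) the start of another gene on the opposite strand lay within 1000 bases on either side, against 1968 of 8442 (23.3%) named genes above the floor. All of these partners pointed away from the member except Rab6a at Mrpl48 (-410 bases), where the genes overlap at their starts. Overlapping starts were counted in both shares. Such partners included the proteasome gene Psma2 at Mrpl32, the chaperonin gene Tcp1 at Mrpl18 and the respiratory complex I gene Ndufb5 at Mrpl47. The members Mrps11 (mm9 chr7:85928017-85937874, plus strand) and Mrpl46 (chr7:85920227-85927975, minus strand) form such a pair with each other, 42 bases apart. Mrps11 was at 26.5, 29.1 and 29.9 FPKM in the control, LncHSC-1 and LncHSC-2 libraries, and Mrpl46 at 33.2, 33.8 and 33.6. Reads over the starts of such a pair cannot be told apart without strand, and the sources used here do not say whether the counting used strand.

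Promoters of 67 of the 76 genes were matched by symbol in RefSeq (GRCm38.p6), as 250 bases before to 50 after the start, and a gene with several entries was counted once, as holding a motif if any entry did. Those of 5 genes are shown because the later results turn on them: Mrpl33, the highest gene in both cell types, the pair Mrps11 and Mrpl46, and the genes above the floor that differed most between KSL libraries, Mrps21 and Mrpl11. Capitals mark matches on either strand to CCGGAAG (the core bound by ETS factors such as GABPA), AAGATGGC (YY1), CGCATGCG (the NRF1 core) and CCAAT.
Mrpl33, chr5:31613701-31614000, + strand: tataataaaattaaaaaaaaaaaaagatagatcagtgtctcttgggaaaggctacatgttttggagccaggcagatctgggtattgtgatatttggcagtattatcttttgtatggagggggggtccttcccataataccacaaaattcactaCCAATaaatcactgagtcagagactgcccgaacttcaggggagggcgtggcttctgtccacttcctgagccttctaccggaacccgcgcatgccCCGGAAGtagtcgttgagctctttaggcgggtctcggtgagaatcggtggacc
Mrps11, chr7:78782881-78783180, + strand: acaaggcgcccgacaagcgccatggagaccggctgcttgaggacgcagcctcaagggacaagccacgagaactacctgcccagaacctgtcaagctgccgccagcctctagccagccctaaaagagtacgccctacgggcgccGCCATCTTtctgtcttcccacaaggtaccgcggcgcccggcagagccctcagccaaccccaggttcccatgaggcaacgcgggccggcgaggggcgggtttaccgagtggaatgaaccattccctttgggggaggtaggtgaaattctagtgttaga
Mrpl46, chr7:78783040-78783339, - strand: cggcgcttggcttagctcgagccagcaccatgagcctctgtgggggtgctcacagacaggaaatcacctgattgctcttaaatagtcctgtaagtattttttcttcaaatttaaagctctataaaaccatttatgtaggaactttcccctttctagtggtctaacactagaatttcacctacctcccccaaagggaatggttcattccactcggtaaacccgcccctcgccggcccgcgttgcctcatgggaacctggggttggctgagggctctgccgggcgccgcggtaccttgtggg
Mrps21, chr3:95871465-95871764, - strand: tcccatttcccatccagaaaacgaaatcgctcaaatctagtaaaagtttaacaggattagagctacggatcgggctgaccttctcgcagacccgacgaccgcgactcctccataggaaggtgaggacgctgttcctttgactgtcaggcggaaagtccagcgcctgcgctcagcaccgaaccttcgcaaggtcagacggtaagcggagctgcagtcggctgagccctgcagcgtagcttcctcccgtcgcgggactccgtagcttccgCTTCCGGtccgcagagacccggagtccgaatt
Mrpl11, chr19:4962056-4962355, + strand: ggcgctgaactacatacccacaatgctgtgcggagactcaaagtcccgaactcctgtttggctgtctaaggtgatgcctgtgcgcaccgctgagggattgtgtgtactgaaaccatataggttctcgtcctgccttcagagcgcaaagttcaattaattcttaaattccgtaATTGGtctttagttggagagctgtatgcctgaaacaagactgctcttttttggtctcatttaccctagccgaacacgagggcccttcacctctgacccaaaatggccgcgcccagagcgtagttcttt
Mrpl33 held an ETS match that begins 3 bases before the start and a CCAAT match 97 bases before it. Mrps21 held an ETS match, read on the opposite strand, that begins 18 bases after the start. Mrps11 held a YY1 match on the opposite strand at 107 bases before its start, in the stretch that it does not share with Mrpl46, and Mrpl11 a CCAAT match on the opposite strand at 78 bases before its start. The windows of Mrps11 and Mrpl46 share 141 bases, and none of these letters occurred in that of Mrpl46.

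Over the 67 promoters, matches to the factors known for nuclear genes of mitochondria were more frequent than over the promoters of all 27025 genes in the table. CCGGAAG was in 24 (35.8%) against 9.93% of all, AAGATGGC in 12 (17.9%) against 3.19%, and CGCATGCG in 7 (10.4%) against 2.07%. At least 1 of these stood in 36 promoters (53.7%) against 14.1% of all. The SP1 letters GGGCGG were in 33 (49.3%) against 38.2%, CCAAT in 27 (40.3%) against 41.1%, the E box CACGTG in 5 (7.46%) against 8.09%, and the CRE letters TGACGTCA in 2 (2.99%) against 2.03%. The member promoters had a median of 58.0% G and C against 52.8% over all, and the part of base composition in these shares was not tested. The 27025 genes were not restricted to expressed ones, whereas nearly all members were expressed in KSL cells. The part of expression in these shares was not tested either. A match to such short letters is a description, not a bound site.

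Each knockdown ratio below uses the same control library. In the LncHSC-1 library the genes as a group stood close to the control. Their median log2 ratio was 0.01 against -0.02 for all 9153 features above the floor. 40 of 75 genes were higher than in the control, where 43.8% of all features were. A log2 ratio of 0.32 was used as a rule of size. 0 genes were higher by that much, against 3.70% of all features, and 1 was lower by that much, against 2.13%. The 95% counting interval of the ratio lay above 0 for 8 genes, against 14.8% of all features, and below 0 for 12, against 24.8%. The counts past 0.32 and past the counting interval were each below the share over all features, while the count of genes higher by sign was above it. The intervals are exact binomial ones, cover counting error only and compare 2 libraries. The reads of all members pooled gave a log2 ratio of -0.01 (interval -0.02 to 0.00).

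In the LncHSC-2 library the group stood slightly above the control. The median log2 ratio was 0.06 against 0.00 for all features. 57 of 75 genes were higher, where 52.1% of all features were. 0 genes were higher by 0.32 or more, against 2.29% of all features, and 1 was lower by that much, against 1.64%. The interval lay above 0 for 8 genes, against 13.0% of all features, and below 0 for 2, against 12.5%. The shares of members past either limit were again no larger than those of all features. Pooled reads gave 0.04 (interval 0.03 to 0.05), a 95% counting interval that holds no spread between cultures. The direction depends on the scale: on the deposited count columns, which place the median feature of this library at -0.14, the median member was at -0.08, still above that median.

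Set directly against each other, the knockdown libraries differed as little. The median log2 ratio of LncHSC-1 over LncHSC-2 was -0.05, against -0.03 for all features, and 24 of 75 genes were higher in LncHSC-1, against 40.4% of all features. 1 gene was higher in LncHSC-1 by 0.32 or more, against 3.30% of all features, and 1 was lower by that much, against 2.52%. The interval lay above 0 for 3 genes, against 12.5%, and below 0 for 17, against 23.3%. Here too no share of members past either limit exceeded that of all features. By sign, 51 of 75 genes were lower in LncHSC-1, a larger share than the 5450 of all 9153 features. On the deposited count columns the median member was at 0.10 and the median feature at 0.12, so the sign of both turned while the member remained below the median feature.

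**Figure D2:**
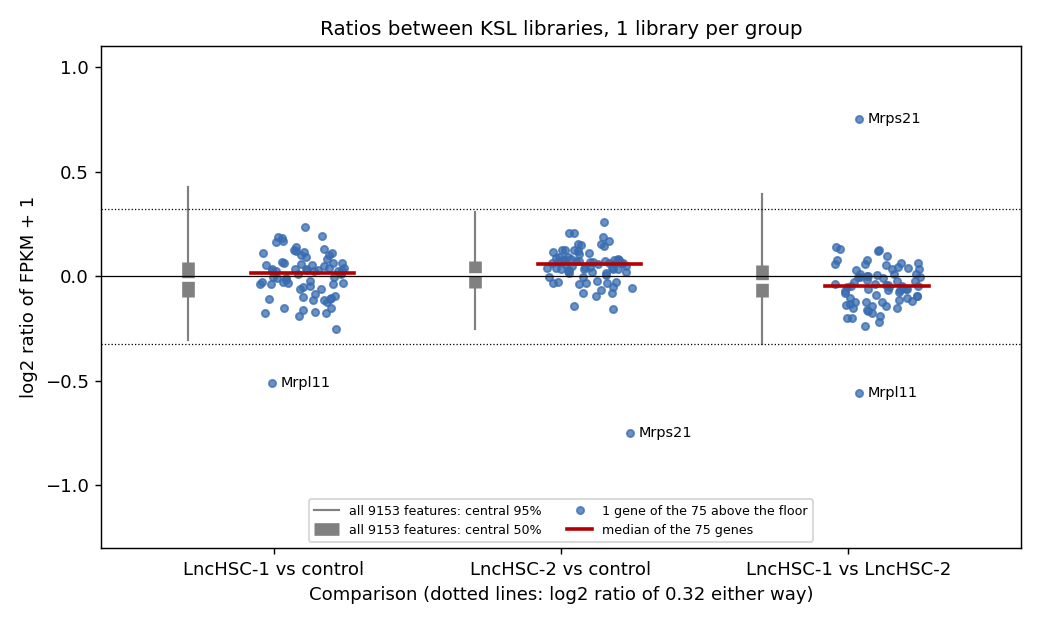
Log2 ratio of FPKM + 1 of the 75 genes above the floor (points, with the median as a line) in the comparisons of the 3 KSL libraries, beside the central 50% and 95% of all 9153 features (grey bars). Points lie within 0.32 of 0 (dotted lines) except Mrpl11, lower in LncHSC-1 at -0.51 against control, and Mrps21, lower in LncHSC-2 at -0.75.

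Most genes kept nearly the same level in the 3 KSL libraries, and so did most features in each comparison, by the shares given last. The highest of the 3 KSL values was a median of 1.09 times the lowest over the 75 genes. It was under 1.1 times in 43 genes and under 1.2 times in 72, counts that were not made over all features. Mrpl24 was steadiest, at 72.6 FPKM in the control, 73.3 in LncHSC-1 and 73.5 in LncHSC-2. Mrpl46, Mrpl40 and Mrpl16 followed, each within 1.03 times. The order of the 76 levels was nearly the same in the 3 libraries, and the log2 ratio stayed within 0.1 in 45, 56 and 48 of the 75 genes in the 3 comparisons. Over all features that share was 56.4%, 67.5% and 59.3%, and over the genes 60.0%, 74.7% and 64.0%.

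Mrps21, a small subunit gene with a bacterial counterpart (mm9 chr3:95666575-95674542, minus strand), was the largest exception. It was at 69.0 FPKM in the control, 68.9 in LncHSC-1 and 40.6 in LncHSC-2, from 429, 500 and 236 reads. The control and LncHSC-1 values nearly coincide and only the LncHSC-2 value is low. The log2 ratio of LncHSC-2 to control was -0.75, and that of the reads was -0.78 (95% counting interval -1.02 to -0.55). The log2 ratio of LncHSC-1 to LncHSC-2 was 0.75. On this scale of FPKM + 1 it was the 1 member past 1.5-fold in any comparison of KSL libraries, and its promoter is the one above with the ETS match after the start.

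Mrpl11 (mm9 chr19:4962306-4966995, plus strand), whose product lies at the base of the stalk where translation factors bind, was lower in the LncHSC-1 library. It was at 13.7 FPKM in the control, 9.31 in LncHSC-1 and 14.2 in LncHSC-2, from 943, 748 and 923 reads. Here the control and LncHSC-2 values lie close and LncHSC-1 is low. The log2 ratio of LncHSC-1 to control was -0.51, and that of the reads was -0.56 (95% counting interval -0.70 to -0.42). Against LncHSC-2 it was -0.56. Neither low value has a second library behind it.

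**Figure D3:**
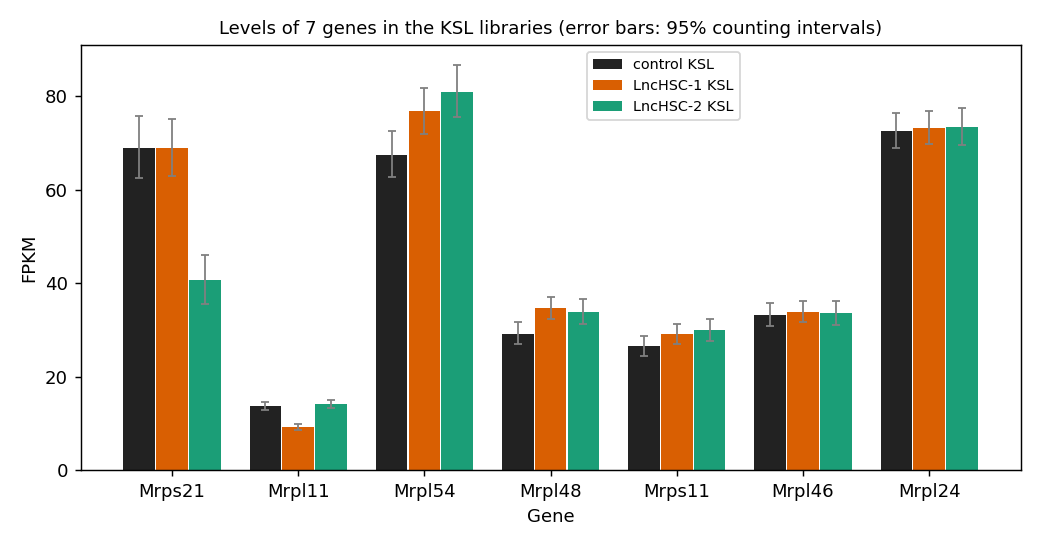
FPKM of 7 genes in the control, LncHSC-1 and LncHSC-2 KSL libraries, 1 library each, with exact Poisson 95% intervals of the reads as error bars (counting error only). Mrps21 is low in LncHSC-2 at 40.6 and Mrpl11 low in LncHSC-1 at 9.31, while the 3 values of Mrpl46 and of Mrpl24 lie within 1.03 times of each other.

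The next genes in size were smaller, and several of them lay on the same side of the shared control in both libraries. Mrpl48, a mitochondria-specific large subunit gene, was at 29.2 FPKM in the control, 34.6 in LncHSC-1 and 33.9 in LncHSC-2, log2 ratios of 0.24 and 0.21 to that control. Mrpl54, of the same class, was at 67.4, 76.7 and 81.0 FPKM, log2 ratios of 0.18 and 0.26. Mrpl37, again of that class, was at 28.8, 33.0 and 32.9 FPKM, a log2 ratio of 0.19 in each. On the deposited count columns the LncHSC-2 ratio of Mrpl48 was 0.06 and that of Mrpl54 was 0.11. The control was the lowest FPKM library for these 3 genes, and 1 low control value moves both ratios. In LncHSC-1 the highest 5 were completed by Mrps31 at 0.19 and Mrps24 at 0.17, and in LncHSC-2 by Mrps18c at 0.21 and Mrps11 at 0.17.

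At the lower end of LncHSC-1 against control, after Mrpl11, stood Mrps6 at -0.25, Mrpl49 at -0.19, Mrpl50 at -0.18 and Mrpl44 at -0.18. The Mrps6 value comes from the merged feature. At the lower end of LncHSC-2, after Mrps21, stood Mrps22 at -0.16, Mrpl22 at -0.14, Mrps2 at -0.09 and Mrpl53, again a merged feature, at -0.08. None of these reached 0.32 in size, and in LncHSC-2 only Mrps21 and Mrps22 had an interval below 0. Between the knockdown libraries the lowest after Mrpl11 were Mrpl33 at -0.24, Mrps28 at -0.22, Mrps6 at -0.20 and Mrpl43 at -0.20, and the highest after Mrps21 were Mrpl55 at 0.14, Mrps24 at 0.13, Mrpl22 at 0.13 and Mrps7 at 0.12. Mrpl33, the highest gene, thus stood 0.15 below the control in LncHSC-1 and 0.09 above it in LncHSC-2.

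Granulocytes held a different picture. 32 of 76 genes were at 5 FPKM or more, where 17.7% of all features were, 5 were at 20 FPKM or more and 8 were below 1 FPKM. The median gene stood at 3.77 FPKM and the genes took 0.140% of the summed FPKM. Without the 50 highest features of each library that share was 0.283% in granulocytes and 1.01% in control KSL cells. Granulocyte and KSL values come from separate experiments and tables with other gene models, so no fold between them is given, and ranks within each are set side by side. In bulk samples such as these, fewer cells of a type and less RNA per cell cannot be told apart. The ninth decile was 16.9 times the first, against 6.84 in control KSL cells, so the genes were spread more widely.

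Mrpl33 stood apart from the other genes in granulocytes. It was at 175 and 177 FPKM in the technical replicates, and the next gene, Mrps21, was at 30.6 and 28.2. Mrpl33 ranked 236 of 34309 shared features in granulocytes and 387 in control KSL cells, so it stood near the top of both. Mrpl20 followed with a mean of 25.5 FPKM, Mrps18c with 21.9, Mrpl10 with 19.5 and 20.5 in the replicates and Mrpl24 with a mean of 19.8. Of these, Mrpl33 and Mrpl20 were also among the 6 highest in the control. Mrpl33 alone held 176 of the 620.8 FPKM that the 76 genes summed to in granulocytes.

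The lowest granulocyte genes were Mrps6 at 0.0641 and 0.0866 FPKM, Mrpl11 at a mean of 0.476, Mrpl23 at 0.520, Mrpl35 at 0.596, Mrpl38 at 0.785 and Mrps27 at 0.795. Mrps18b at 0.851 and Mrps36 at 0.885 were the other 2 below 1 FPKM. Mrps6 was counted there over a merged model of 11544 bases, which covers Slc5a3, and its value per KSL model length would be 0.703 FPKM. Mrpl53, merged with Ccdc142, was at 2.61 and 2.60 FPKM and would be at 12.6 on the KSL length. These are the 2 genes whose model lengths differ by more than 1.5 times between the tables.

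By percentile rank within each table, granulocytes minus control KSL cells, the lowest differences were those of Mrps6 (-39.2 points, the merged model), Mrps28 (-25.5), Mrpl38 (-22.5), Mrps2 (-20.7) and Mrps18b (-20.7). Mrps28 stood at percentile 96.3 in the control and 70.8 in granulocytes, with 65.9 FPKM in the control and 1.06 and 0.974 FPKM in the granulocyte libraries. Mrpl12, the stalk gene, was second in KSL cells and stood at 3.03 and 3.58 FPKM in granulocytes. The highest differences were those of Mrpl23 (2.15 points), Mrps25 (2.11), Mrpl33 (0.440), Mrpl10 (-0.160) and Mrps21 (-1.60). That of Mrpl23 rests on 11 control reads and on 0.520 FPKM in granulocytes, and its level is uncertain, as given above. Spearman's rho between control KSL and granulocyte levels was 0.62 over the 76 genes, 0.66 with granulocyte values per KSL model length, and the technical replicates of granulocytes gave 0.99. These are descriptions across genes, which share a library and the length scaling.

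**Figure D4:**
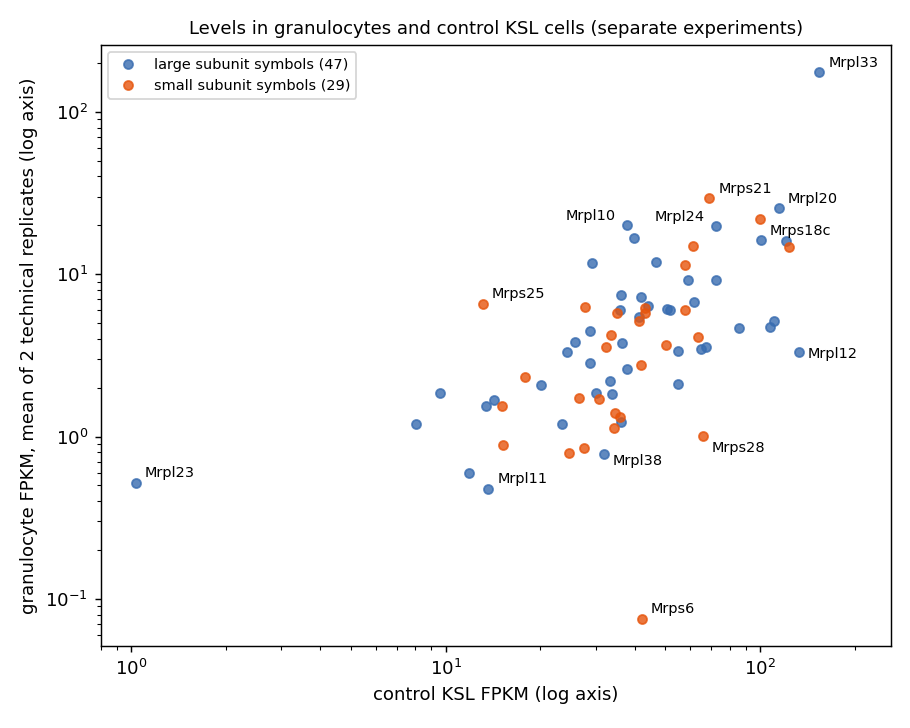
Granulocyte FPKM (mean of 2 technical replicates) against control KSL FPKM of the 76 genes, both on log axes, with large and small subunit symbols in 2 colours. Mrpl33 lies far above the other genes in granulocytes at 176 FPKM, and Mrps28 and Mrps6 lie far below genes of like KSL level. Mrps6 is drawn from its merged granulocyte model and would lie at 0.703 FPKM per KSL model length.

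Other proteins of the same pathway, taken from lists of named genes, mostly had small ratios in KSL cells, as most features did. Over all features, 3.70% were higher by 0.32 or more in LncHSC-1 and 2.13% lower by that much. The shares were 2.29% and 1.64% in LncHSC-2, and 3.30% and 2.52% for LncHSC-1 against LncHSC-2. At such shares, counts of 0 or 1 in lists this short are no result about the pathway. Of 7 mitoribosomal proteins under other symbols, such as Dap3 and Ptcd3, all were above the floor and none passed 0.32 in any comparison. The largest were Ict1 at 0.26 and Ptcd3 at -0.18 in LncHSC-1. Among 24 of 25 assembly factors above the floor, Trmt61b, a methyltransferase for mitochondrial transfer and ribosomal RNA, was at 10.0, 7.45 and 11.5 FPKM, a log2 ratio of -0.39 in LncHSC-1, and was the 1 that passed 0.32 in that comparison and against LncHSC-2. In LncHSC-2 the largest was Rbfa, which matures the small subunit, at 0.24, with 36.8 FPKM in the control and 43.5 in LncHSC-2. Of 18 of 19 translation factors above the floor, the release factor gene Mtrf1l passed 0.32 in LncHSC-1, at -0.34 from 6.09 to 4.62 FPKM. Among 10 of 13 mitochondrial transcription genes and 11 of 13 transcriptional regulators above the floor, none passed 0.32.

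In granulocytes, where 17.7% of all features were at 5 FPKM or more, the lists differed. That level was reached by 4 of the 7 mitoribosomal proteins under other symbols (list median 5.01 FPKM) and by 8 of the 13 regulators (7.996). It was reached by 4 of 25 assembly factors (1.18), 2 of 19 translation factors (1.85) and 2 of 13 transcription genes (1.95). Rbfa was among the assembly factors that did, at 64.8 and 68.2 FPKM. Among the regulators, Gabpa, whose ETS letters are the most frequent of the 3 in member promoters, was at 20.6, 18.8 and 22.2 FPKM in KSL cells and at 7.87 and 8.12 in granulocytes. Myc, named after its values were seen, was at 139, 137 and 135 FPKM in KSL cells and at 1.16 and 1.14 in granulocytes. Of the transcripts that the mitochondrial ribosome itself translates, mt-Nd4 was the 1 found by the symbols searched. It codes for a subunit of respiratory complex I. The level of mt-Nd4 was 302, 347 and 286 FPKM in the control, LncHSC-1 and LncHSC-2 libraries and 79.0 and 78.8 in granulocytes. Its log2 ratio was 0.20 in LncHSC-1 and -0.08 in LncHSC-2.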

How the data were processed

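RNA sequencing libraries of 2 granulocyte technical replicates and 3 KSL groups were used, with groups and replicates from the labels. Per the submitters' processing notes the build was mm9 and DESeq was used. The sources used here name no aligner, counting tool or use of strand. FPKM values were used as deposited by the authors. The KSL count columns were deposited as a signal in which each library's reads carry their own factor (1.08, 0.924 and 1.03 in control, LncHSC-1 and LncHSC-2), since 91.7% to 92.1% of values of up to 20 reads were whole multiples within 0.1. Division by the factor gave estimated reads. The granulocyte count columns were deposited as a score, scaled and rounded, and were used only beside FPKM.

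Ratios were log2 of FPKM + 1, which understates the change of low genes, for features with a mean of at least 5 FPKM over the 3 KSL libraries. Intervals were exact binomial 95% intervals of estimated reads, with relative depth taken from the reads behind each FPKM unit, without a pseudocount. The interval reached a median of 0.119, 0.124 and 0.122 log2 units to either side over the genes in the 3 comparisons, which limits what could be seen. No test was made with 1 library a group. Alternatives were pseudocounts of 0.1 and 5 FPKM, floors of 1, 20 and none, the count columns as deposited and scaled by median-of-ratios factors, single-symbol features, other subunit assignments, each granulocyte replicate alone and shares of summed FPKM without the 50 highest features.

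Genes were named by rule: members past 1.5-fold, the 5 highest and 5 lowest per KSL comparison, the 6 highest and 6 lowest in control and granulocytes, those below the floor, the 5 largest rank differences each way, the Mrps18 paralogs, merged features and up to 4 per other list. Members and lists were chosen with earlier results of these data known. The calculations were tested on simulated data. Python 3.11.15, numpy 2.4.6, pandas 2.3.3, scipy 1.17.1 and matplotlib 3.10.9 were used. B cell libraries were not analysed here.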

Additional observations from a re-analysis of the deposited data

How the results depend on the processing

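No paired analysis was possible because each KSL group was 1 library. Of 345 recomputed values, 301 were labelled as within a limit and 44 as moved, and no called ratio turned. These counts do not measure robustness, because many of the values could not change. The ratio of a single gene is the same under any floor that keeps it, with single-symbol features and with other subunit assignments. A pseudocount cannot change the number of genes higher by sign. The shares without the 50 highest features were labelled as moved without a limit. The limit was counting error for ratios of single genes, and elsewhere replicate spread or a count ratio of 1.5. For median ratios it was instead an interval of the median over genes or features, which treats them as replicates. It is not counting error, and a wide spread between genes lets a median move further before it counts as moved. On the count columns as deposited the number of genes higher in LncHSC-2 than in control was 8 in place of 57. The number higher in LncHSC-1 than in LncHSC-2 was 65 in place of 24. Those columns place the median feature at -0.14 and 0.12 in these comparisons, and which scale is right was not tested. Relative to all features the member median stayed above 0 in LncHSC-1 (0.01 to 0.04) and LncHSC-2 (0.04 to 0.06) and below 0 between them (-0.05 to -0.01) in every setting run, the lowest being -0.047 with no floor. Genes lower in LncHSC-1 by 0.32 or more numbered 0 with a floor of 20 FPKM, which leaves 65 genes and drops Mrpl11, and 2 with no floor, which adds Mrpl23, in place of 1; against LncHSC-2 the number was 0 with the floor of 20. Mrps21 ranged from -0.92 to -0.70 in LncHSC-2 and Mrpl11 from -0.55 to -0.38 in LncHSC-1. On the count columns as deposited Mrpl54 was at 0.11 in place of 0.26 in LncHSC-2 and Mrpl48 at 0.06 in place of 0.21. Without the 50 highest features the members' share of summed FPKM was 1.01%, 1.01% and 1.02% in control, LncHSC-1 and LncHSC-2 and 0.283% in granulocytes, in place of 0.140%. Granulocyte genes at or above the floor numbered 32, 68 with a floor of 1 FPKM and 5 with one of 20, and 32 with either technical replicate left out.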
